A study of Mus musculus with 12 samples.

Results

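The S100 genes are the subject here: the 8 genes S100a1, S100a4, S100a6, S100a10, S100a11, S100a13, S100a16 and S100b, taken by gene symbol from the 16482 genes with usable names in the count table. They were measured in whole-brain homogenates of C57BL/6 mice, 4 samples in each of 3 groups. The treated mice were injected with CBE together with GZ-667161 (CBE+GZ-667161) or with CBE, and the controls were injected with PBS. CBE, conduritol B epoxide, inactivates the lysosomal enzyme acid beta-glucosidase, and with it glucosylceramide breakdown, which makes a chemically induced model of neuronopathic Gaucher disease. GZ-667161 inhibits glucosylceramide synthase, the enzyme that makes that lipid, and the question of the design is how far the brain transcriptome after CBE differs when the inhibitor is given as well. All CBE+GZ-667161 and PBS samples carry a postnatal age of 40, read here as days, whereas in the CBE group replicates 4 and 6 are of day 40 and replicates 2 and 3 of day 34. Treatment and age are therefore partly confounded in every comparison with the CBE group, and the day 34 samples are given apart where that matters. The labels do not say whether each sample was a separate animal, so the tests below take account of variation among samples, some of which may be technical.

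S100 proteins are small EF-hand proteins found in vertebrates. Most of them form dimers, and calcium binding exposes a surface through which they bind target proteins such as annexins, cytoskeletal proteins and enzymes; some are also released and act on receptors such as RAGE. In the brain, S100b is a long-used astrocyte marker, and S100a6 and S100a4 are known from astrocytes in gliosis, with S100a4 also found in fibroblasts and blood-derived immune cells.

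7 of the 8 genes lie on mouse chromosome 3, and S100b lies on chromosome 10. In GENCODE M21 coordinates on mm10, S100a1 (chr3:90511034-90514392, minus strand) and S100a13 (chr3:90514435-90524581, plus strand) stand head to head with 42 bases between them. S100a4 (chr3:90603771-90606045) ends 6836 bases before S100a6 (chr3:90612882-90624181), both on the plus strand. S100a16 (chr3:90537254-90543151) lies between these pairs, 12672 bases from S100a13 and 60619 bases from S100a4. S100a11 (chr3:93520488-93526287) starts 2896306 bases past the end of S100a6, and S100a10 (chr3:93555080-93564643) lies a further 28792 bases past S100a11, while S100b spans chr10:76253853-76261159. 3 promoters are shown because they belong to the genes whose levels moved: those of S100a6 and S100a4, and the S100a13 window, which also holds the gap to S100a1. They come from RefSeq, build GRCm38.p6, and hold 250 bases before the gene start and 50 bases counted from it, all on the plus strand, at chr3:90612644-90612943 for S100a6, chr3:90603520-90603819 for S100a4 and chr3:90514185-90514484 for S100a13. Capitals mark an E-box (CACGTG) in S100a6, a TATA box (TATAAA) in S100a4, and the 42 bases between S100a1 and S100a13 in the S100a13 window.
S100a6: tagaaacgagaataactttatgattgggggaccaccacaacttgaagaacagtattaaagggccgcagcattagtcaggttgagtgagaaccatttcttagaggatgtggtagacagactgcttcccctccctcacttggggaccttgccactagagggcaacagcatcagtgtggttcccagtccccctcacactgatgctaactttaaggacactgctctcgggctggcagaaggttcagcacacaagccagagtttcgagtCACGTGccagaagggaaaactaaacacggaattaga
S100a4: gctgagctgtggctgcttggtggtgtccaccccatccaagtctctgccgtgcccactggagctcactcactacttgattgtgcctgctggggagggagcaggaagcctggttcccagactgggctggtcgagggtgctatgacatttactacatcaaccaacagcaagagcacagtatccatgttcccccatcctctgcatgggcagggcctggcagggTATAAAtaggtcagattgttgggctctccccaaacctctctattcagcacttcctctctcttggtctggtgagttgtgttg
S100a13: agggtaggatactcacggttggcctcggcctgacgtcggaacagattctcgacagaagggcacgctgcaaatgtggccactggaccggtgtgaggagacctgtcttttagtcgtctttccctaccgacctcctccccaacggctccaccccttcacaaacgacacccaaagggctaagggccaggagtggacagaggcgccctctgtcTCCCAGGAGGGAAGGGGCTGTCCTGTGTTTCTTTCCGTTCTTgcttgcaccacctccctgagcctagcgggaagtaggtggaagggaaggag
The RefSeq table matched 7 of the 8 genes, all except S100a10. The E-box CACGTG, read on both strands, occurred in promoters of 2 of these 7 genes (S100a6 and S100a11) and in 7.15% of all 32851 promoters of the table. TATAAA occurred in 1 of the 7 (S100a4) and in 13.6% of all promoters. The AP-1 site TGANTCA occurred in 2 of the 7 and in 7.81% of all promoters, and the GC box GGGCGG in 2 of the 7 and in 35.7%. A gene was counted if any of its windows held the site, whereas the shares are over single promoters. S100a16 had windows at chr3:90537004-90537303 and chr3:90540896-90541195, and its AP-1 and GC box matches lay in the latter only. Neither the STAT site TTCNNNGAA nor the interferon-stimulated response element was found in these windows of the 7 genes, against 8.3% and 3.44% of all promoters. These matches describe letters in the windows only.

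The libraries were made by a bulk version of MARS-seq, a method that counts tags near the 3' end of transcripts. Total counts ran from 2217976 to 4917330 in CBE+GZ-667161, from 1758446 to 3051435 in CBE and from 2423380 to 6521257 in PBS samples. Levels below are CPM, which are counts divided by TMM-scaled library sizes, and differences are log2 fold changes from edgeR's quasi-likelihood test over 12623 tested genes, with adjusted p (Benjamini-Hochberg) under 0.05 called as passed. All 8 S100 genes were tested. Markers of brain cells were present throughout: the summed level of 13 neuron markers was 6678 to 7853 CPM in CBE+GZ-667161, 6029 to 6988 CPM in CBE and 8276 to 8474 CPM in PBS samples, and that of 12 astrocyte markers was 4538 to 4794, 4762 to 5248 and 4427 to 5200.2 CPM in those groups. Xist exceeded 1 CPM in 3 CBE+GZ-667161, 0 CBE and 2 PBS samples, so sex differed between groups and its part in the levels was tested only as a covariate. The choroid plexus gene Ttr ranged from 15.1 to 329 CPM in CBE+GZ-667161, from 56.0 to 517 CPM in CBE and from 11.3 to 103 CPM in PBS samples.

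After CBE, 4 of the 8 genes were higher than in PBS and none was lower: S100a6 and S100a4 by about 4-fold, S100a1 by 1.55-fold and S100a13 by 1.37-fold. S100a10, S100a11, S100a16 and S100b did not pass. Over all genes tested, 1387 passed in this comparison, 6.95% as higher and 4.04% as lower. The same 4 genes, and no others of the 8, were those whose CBE samples all lay above all PBS samples, which 8.61% of all genes did. The median log2 fold change was 0.54 over the 8 genes and -0.01 over all genes tested.

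**Figure D1:**
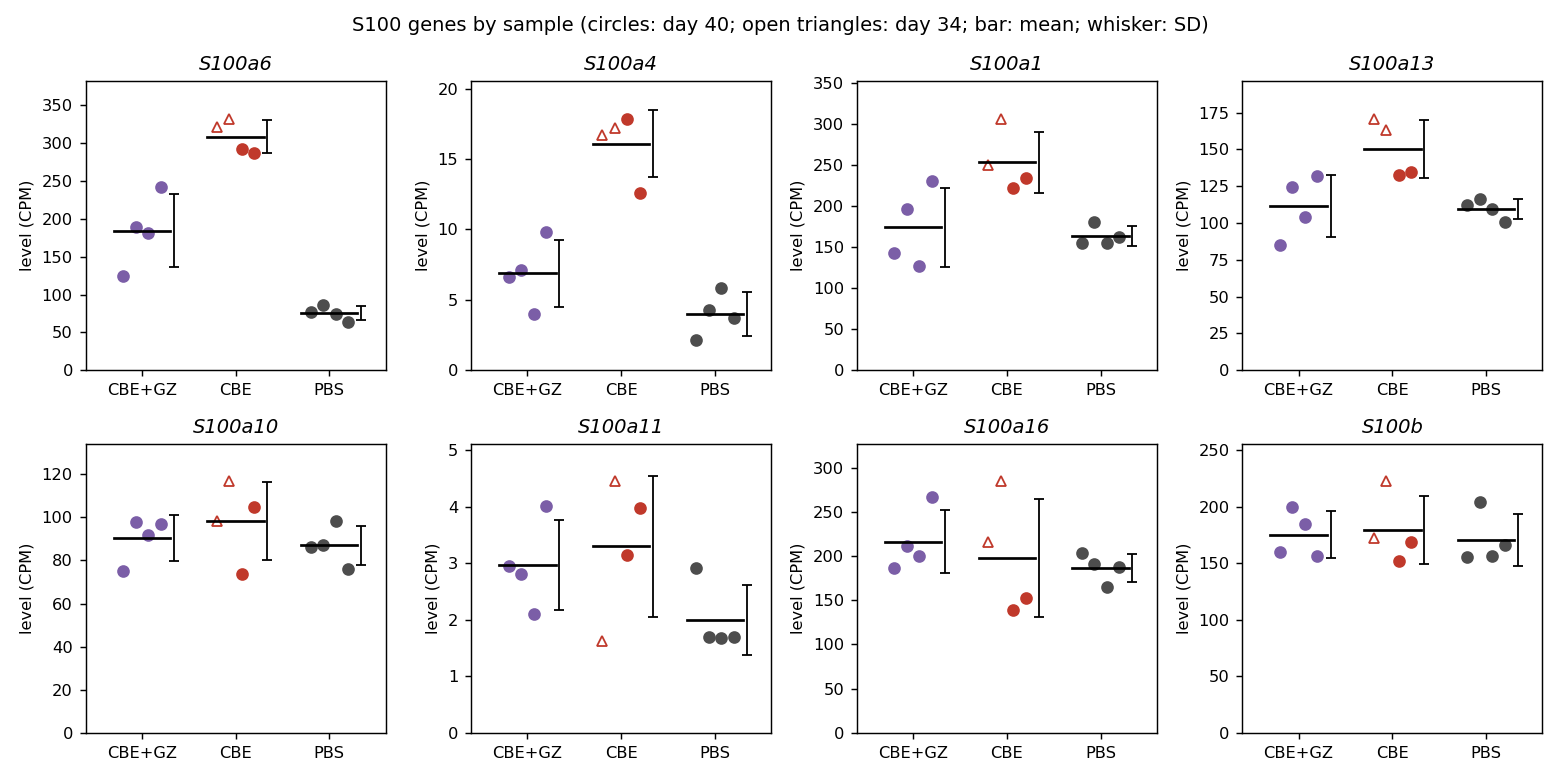
Level of each S100 gene in CPM (y axis, starting at 0) in every sample of CBE+GZ-667161, CBE and PBS (x axis). Points are samples, open triangles are the day 34 CBE samples, bars are group means and whiskers are SD. For S100a6 the 3 groups do not overlap, with means of 184, 308 and 75.5 CPM, whereas for S100b they overlap throughout.

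S100a6, or calcyclin, binds annexins and the ubiquitin ligase adaptor CacyBP. Its level was 125.0, 190, 181 and 242 CPM in CBE+GZ-667161 samples, 321, 332, 293 and 287 CPM in CBE samples, and 77.3, 86.2, 74.6 and 64.1 CPM in PBS samples. Every CBE sample lay above every CBE+GZ-667161 sample, and every CBE+GZ-667161 sample above every PBS sample. The means were 184 ± 48.1, 308 ± 21.8 and 75.5 ± 9.07 CPM in CBE+GZ-667161, CBE and PBS (SD, n = 4 each). S100a6 rose in CBE relative to PBS by 2.03 ± 0.16 on the log2 scale (SE; 95% interval 1.68 to 2.38), or 4.08-fold, with an adjusted p of 3.3e-07 (edgeR). It was also higher in CBE+GZ-667161 than in PBS, by 1.28 ± 0.16 (0.94 to 1.63), or 2.44-fold, with an adjusted p of 7.4e-05 (edgeR). The direct comparison of CBE+GZ-667161 with CBE gave -0.74 ± 0.16 (-1.08 to -0.41) and an adjusted p of 0.032 (edgeR). That last call was lost in 12 of the 23 alternatives tried, among them the age splits: without the day 34 samples the difference was -0.65 with an adjusted p of 0.071 (edgeR), and without the day 40 samples -0.85 with an adjusted p of 0.15 (edgeR). It also ended without PBS replicate 4, CBE replicate 2, CBE replicate 4, CBE replicate 6, or CBE+GZ-667161 replicate 2, 3 or 4, where the difference ran from -0.78 to -0.59 and the adjusted p (edgeR) from 0.053 to 0.11. All 3 comparisons share samples, so these values stand side by side and are not independent.

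S100a4, also called metastasin, binds non-muscle myosin II and is known from motile cells. It was measured at far fewer counts, 19 to 33 in CBE+GZ-667161, 31 to 51 in CBE and 8 to 24 in PBS samples. Its level was 6.59, 7.15, 3.98 and 9.80 CPM in CBE+GZ-667161 samples, 16.7, 17.2, 17.9 and 12.6 CPM in CBE samples, and 2.12, 4.25, 5.86 and 3.69 CPM in PBS samples. The CBE samples lay above all the others, whereas the CBE+GZ-667161 and PBS ranges overlapped. S100a4 rose in CBE relative to PBS by 2.04 ± 0.32 (1.37 to 2.71), or 4.11-fold, with an adjusted p of 0.00035 (edgeR). The CBE+GZ-667161 samples differed from PBS by 0.78 ± 0.33 (0.09 to 1.47), with an adjusted p of 0.29 (edgeR), which did not pass. Relative to CBE they differed by -1.26 ± 0.30 (-1.90 to -0.62) with an adjusted p of 0.051 (edgeR), just short of the threshold although the groups did not overlap; it passed in 5 of 23 alternatives. These were RLE scaling (adjusted p = 0.048, edgeR), DESeq2 (adjusted p = 0.0052), limma-voom (adjusted p = 0.026), and leaving out PBS replicate 2 (adjusted p = 0.047, edgeR) or CBE+GZ-667161 replicate 5 (adjusted p = 0.031, edgeR). The authors' deposited table, made with DESeq2 per the submitters' processing notes, gives adjusted p of 0.0171 for S100a4 and 0.00399 for S100a6 in this last comparison. S100a4 shares exon bases on its strand with the predicted gene Gm42674 in GENCODE M21, so tags of both could have been counted together.

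The head-to-head neighbours S100a1 and S100a13 moved less. S100a1, known from heart muscle, where it regulates the ryanodine receptor and the SERCA2 calcium pump, had 143, 196, 127 and 231 CPM in CBE+GZ-667161 samples, 251, 307, 222 and 234 CPM in CBE samples, and 155, 181, 155 and 162 CPM in PBS samples. Its CBE samples all exceeded the PBS samples, while the CBE+GZ-667161 samples ran from below the PBS range into the CBE range. S100a13, known for its part in the unconventional release of FGF1 and interleukin-1 alpha, had 85.2, 124, 104 and 131.9 CPM in CBE+GZ-667161 samples, 171, 163, 132.4 and 135 CPM in CBE samples, and 112, 116, 109.8 and 101 CPM in PBS samples. Here the CBE samples lay above all samples of both other groups, by a narrow margin over CBE+GZ-667161. In CBE against PBS the log2 fold change was 0.63 ± 0.16 (0.28 to 0.98; adjusted p = 0.020, edgeR) for S100a1. It was 0.45 ± 0.14 (0.16 to 0.75; adjusted p = 0.046, edgeR) for S100a13.

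Both calls were less firm than those of S100a6 and S100a4. S100a13 missed the threshold in 13 of 23 alternatives and S100a1 in 4 of 23, whereas S100a4 and S100a6 passed in all 23. With the day 40 CBE samples alone, S100a1 differed from PBS by 0.47 ± 0.19 (adjusted p = 0.13, edgeR) and S100a13 by 0.28 ± 0.16 (adjusted p = 0.29, edgeR), while S100a6 gave 1.93 ± 0.20 (adjusted p = 2.2e-05, edgeR) and S100a4 gave 1.96 ± 0.39 (adjusted p = 0.0045, edgeR). S100a13 was lost without any of PBS replicates 2 to 5 or CBE replicates 2, 3 and 6, with adjusted p of 0.053 to 0.13 (edgeR). Leaving out PBS replicate 2, PBS replicate 4 or CBE replicate 3 also left 2 of the 8 genes, S100a4 and S100a6, past the threshold, with adjusted p for S100a1 of 0.0501 to 0.062 (edgeR). Of all genes, 1020, 1077 and 1515 passed in these fits, in that order, against 1387 in the main fit. Between CBE+GZ-667161 and PBS, S100a1 differed by 0.09 ± 0.16 (-0.26 to 0.43) and S100a13 by 0.02 ± 0.14 (-0.27 to 0.31), and neither passed. Between CBE+GZ-667161 and CBE, S100a1 gave -0.54 ± 0.16 (adjusted p = 0.11, edgeR) and S100a13 gave -0.43 ± 0.14 (adjusted p = 0.13, edgeR), again without passing. S100a1 passed in 2 of 23 alternatives, DESeq2 and without CBE+GZ-667161 replicate 5 (-0.70, adjusted p = 0.033, edgeR). S100a13 passed in 1 of 23, with Ttr as covariate (adjusted p = 0.048, edgeR). The counts of S100a1 per count of S100a13 within a sample averaged 1.56 ± 0.234 in CBE+GZ-667161, 1.69 ± 0.171 in CBE and 1.49 ± 0.111 in PBS (SD, n = 4 each), with overlapping ranges.

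**Figure D2:**
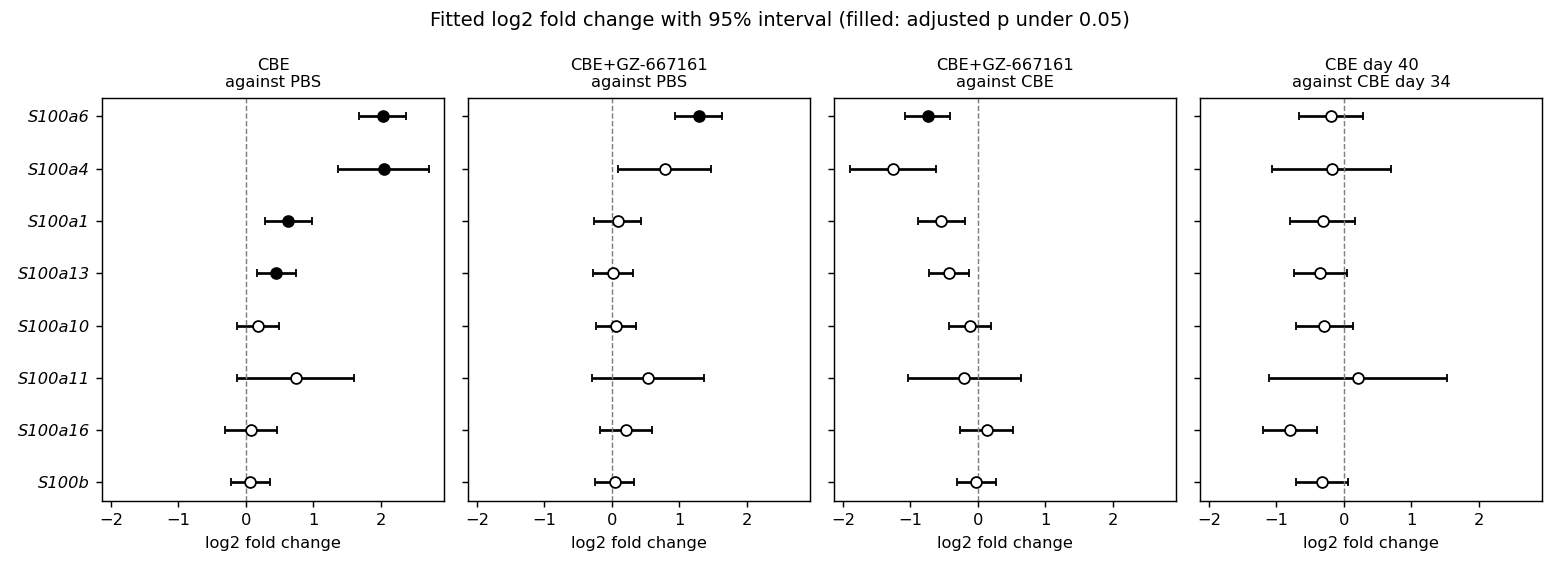
Log2 fold change (x axis) of each S100 gene (y axis) in 4 panels from left to right, for CBE against PBS, for CBE+GZ-667161 against PBS and then against CBE, and for day 40 against day 34 within CBE. Points are edgeR estimates, filled where the adjusted p was under 0.05, and whiskers are 95% intervals. In CBE against PBS the intervals of S100a6, S100a4, S100a1 and S100a13 lie above 0, and S100a6 is the only filled point in both panels with CBE+GZ-667161.

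S100b, the astrocyte protein that is also secreted and binds RAGE, had 159, 199, 185 and 156 CPM in CBE+GZ-667161 samples, 172, 222, 152 and 169 CPM in CBE samples, and 155, 204, 156 and 166 CPM in PBS samples. The 3 groups overlapped throughout. The difference was 0.07 ± 0.14 (-0.22 to 0.35) in CBE against PBS, 0.04 ± 0.14 (-0.25 to 0.32) in CBE+GZ-667161 against PBS and -0.03 ± 0.14 (-0.32 to 0.26) in CBE+GZ-667161 against CBE. The ratio of S100a6 to S100b counts, which does not depend on library scaling, averaged 1.07 ± 0.336 in CBE+GZ-667161, 1.74 ± 0.191 in CBE and 0.446 ± 0.0513 in PBS (SD, n = 4 each). It ran from 0.783 to 1.55 in CBE+GZ-667161, from 1.495 to 1.92 in CBE and from 0.386 to 0.498 in PBS samples, so both treated groups lay above PBS without overlap, whereas CBE+GZ-667161 replicate 5 reached into the CBE range.

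**Figure D3:**
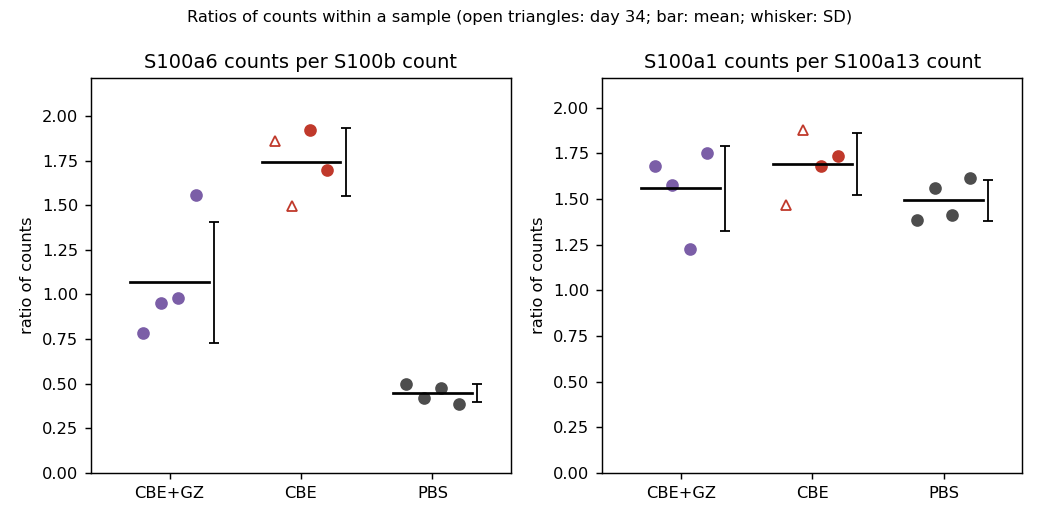
Ratio of counts within a sample (y axes, starting at 0) for S100a6 per S100b and for S100a1 per S100a13 in CBE+GZ-667161, CBE and PBS samples (x axes). Points are samples, open triangles are day 34, bars are means and whiskers SD; the first ratio averaged 1.07, 1.74 and 0.446, and the second 1.56, 1.69 and 1.49.

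S100a10, or p11, is the light chain of annexin A2 and has lost calcium binding. It had 75.2, 97.9, 91.9 and 97.1 CPM in CBE+GZ-667161 samples, 98.1, 117, 73.5 and 105 CPM in CBE samples, and 86.3, 87.2, 98.4 and 75.8 CPM in PBS samples. The groups overlapped, and CBE against PBS gave 0.18 ± 0.14 (-0.13 to 0.48; adjusted p = 0.48, edgeR). S100a11, a partner of annexin A1, lay between 1.62 and 4.44 CPM in all 12 samples, on 3 to 13 counts a sample. At that depth CBE against PBS gave 0.74 ± 0.41 with an interval of -0.13 to 1.60 (adjusted p = 0.28, edgeR), which spans no change and more than a doubling. S100a11 also has an annotated processed pseudogene, S100a11-ps, with which its tags could be confused.

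S100a16, a widely expressed S100 protein, had 187, 211, 200.5 and 267 CPM in CBE+GZ-667161 samples, 216, 284, 139 and 153 CPM in CBE samples, and 203, 191, 165 and 188 CPM in PBS samples. The CBE samples fell on both sides of the PBS range, with the day 34 samples above it and the day 40 samples below it. CBE against PBS accordingly gave 0.07 ± 0.19 (-0.32 to 0.47; adjusted p = 0.84, edgeR). Day 40 against day 34 within CBE gave -0.80 ± 0.19 (-1.20 to -0.40), from means of 146 CPM at day 40 and 250.0 CPM at day 34 (n = 2 each). Its adjusted p was 0.067 (edgeR), so it did not pass, although DESeq2 gave 0.0087 and leaving out CBE+GZ-667161 replicate 5 gave 0.048 (edgeR). Against PBS, the day 40 samples alone differed by -0.36 ± 0.15 (adjusted p = 0.14, edgeR) and the day 34 samples alone by 0.44 ± 0.16 (adjusted p = 0.17, edgeR).

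The other S100 genes gave day 40 against day 34 differences between -0.35 for S100a13 and 0.21 for S100a11, and 0 of the 8 passed (edgeR; 1, S100a16, at an unadjusted p under 0.05, 1 by DESeq2 and 0 by limma-voom). In this comparison 0.613% of 13372 genes passed. 7 of the 8 estimates were negative and 5 genes did not overlap between the ages, all lower at day 40, where 47.8% of all genes did not overlap in either direction and 23.5% were lower at day 40. The day 40 samples also had the larger libraries, with 3003757 and 3051435 counts against 1841257 and 1758446 at day 34, so that age and depth cannot be told apart. Within both treated groups the smallest library also tended to hold the highest S100 levels: CBE replicate 3 was the highest of its group for 6 of the 8 genes and had the lowest total of its group, and CBE+GZ-667161 replicate 5 was the highest of its group for 6 of the 8 genes with a total of 2217976 counts, also the lowest of its group. PBS samples did not show this: their smallest library, replicate 4, was the highest of its group for 2 and the lowest for 3 of the 8 genes. How often the smallest library was the highest over all genes was not counted. The part of depth in these levels was not tested.

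1 of the 8 genes, S100a6, passed in CBE+GZ-667161 against PBS, where 3.45% of all genes passed and 3.11% were higher. S100a6 was also the only 1 of the 8 whose CBE+GZ-667161 and PBS samples did not overlap, against 9.78% of all genes, 6.65% as higher and 3.12% as lower. The median difference was 0.15 over the 8 genes and -0.00024 over all genes. S100a6 was also the gene that passed, now as lower, in CBE+GZ-667161 against CBE, where 1.28% of all genes passed and 0.832% were lower. Without overlap were S100a4, S100a6 and S100a13, all lower in CBE+GZ-667161, against 8.09% of all genes in either direction and 3.98% in the lower one. 7 of the 8 estimates were negative, with a median of -0.32 against 0.01 over all genes.

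Marker lists of several cell types were set beside S100a6 and S100a4. Over all genes tested, 6.95% were higher and 4.04% lower in CBE than in PBS. In CBE+GZ-667161, 3.11% were higher than in PBS and 0.832% lower than in CBE. A count of 1 in the lists below is therefore not read as a result. Of 16 tested markers of reactive astrocytes, 13 were higher in CBE than in PBS and 0 lower, 8 were higher in CBE+GZ-667161 than in PBS, and 8 were lower in CBE+GZ-667161 than in CBE. Their summed level was 684 to 1484 CPM in CBE+GZ-667161, 2291 to 2738 CPM in CBE and 204 to 271 CPM in PBS samples, the same order of groups as S100a6. Of 11 tested microglia markers, 5 were higher in CBE and 4 in CBE+GZ-667161 than in PBS, with summed levels of 666 to 909 CPM in CBE+GZ-667161, 670 to 1287 CPM in CBE and 430 to 440.0 CPM in PBS samples. Between CBE+GZ-667161 and CBE, 0 of these 11 were higher and 0 lower, with a median of -0.07, whereas S100a6 was lower. This covers the listed markers only, and other microglial genes were not counted. Of 12 astrocyte markers, 5 were higher in CBE than in PBS, 0 higher in CBE+GZ-667161 than in PBS, and 3 lower in CBE+GZ-667161 than in CBE. Of 14 endothelial markers, 1 was higher and 1 lower in CBE than in PBS. Of 10 tested pericyte and smooth muscle markers, 0 were higher and 3 lower in CBE than in PBS. Among 13 oligodendrocyte markers, 2 were lower in CBE than in PBS. In CBE+GZ-667161, 2 of these 13 were higher than in CBE, as were 0.444% of all genes. Of 8 tested markers of fibroblasts and meninges, 0 passed, and their sums of 256 to 377 CPM in CBE+GZ-667161, 196 to 463 CPM in CBE and 276 to 371 CPM in PBS samples overlapped. Among markers of blood-derived cells, 1 of 4 tested neutrophil, 1 of 7 monocyte and border macrophage and 0 of 3 T and NK cell markers were higher in CBE than in PBS. Red blood cell markers, of which 1 of 5 tested was lower in CBE than in PBS, summed to 1416 to 3914 CPM in CBE+GZ-667161, 1249 to 1734 CPM in CBE and 1964 to 4039 CPM in PBS samples. Oligodendrocyte precursor markers, of which 1 of 9 was higher and 0 lower in CBE, summed to 484 to 744 CPM in CBE+GZ-667161, 362 to 483 CPM in CBE and 505 to 586 CPM in PBS samples. For both lists the CBE sums lay below all PBS sums. The T cell gene Cd3d had 10 counts in CBE+GZ-667161, 0 in CBE and 2 in PBS samples in all, and no listed marker was at 0 in all samples. The part of these cells in the S100 levels was not tested, and in bulk tissue a change in the number of cells of a type and a change in RNA per cell cannot be told apart.

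The genes closest to S100a6 over the 12 samples were Grn, Ctsd and C1qc. Likeness was the root mean square difference between log2 CPM profiles, each centred on its own mean, over 10985 genes of at least 5 CPM. Grn, encoding progranulin, stood at 0.160, Ctsd, encoding the lysosomal protease cathepsin D, at 0.168, and C1qc, a chain of complement C1q, at 0.170, where the median over genes was 0.918. A gene that did not vary would stand at 0.863 from S100a6, which is the spread of S100a6 itself and near that median. Grn had 267 ± 95.7 CPM in CBE+GZ-667161, 432 ± 51.8 CPM in CBE and 108 ± 6.16 CPM in PBS (SD, n = 4 each), the same order as S100a6. In CBE+GZ-667161 against CBE, C1qc was lower, at -0.78 ± 0.16 (adjusted p = 0.032, edgeR). Grn (-0.70, adjusted p = 0.062, edgeR) and Ctsd (-0.52, adjusted p = 0.16, edgeR) did not pass there. For S100a4 the closest were Msn, the membrane-cytoskeleton linker moesin, and Micall2, both at 0.354, and Irf5, an interferon regulatory factor, at 0.369, against a median of 0.933. S100a1 and S100a13 shared a close gene, the choline transporter-like gene Slc44a2, at 0.171 and 0.105. The others were Plin3 (0.156) and Slc25a10 (0.181) for S100a1, and Rras (0.119) and Entpd2 (0.124) for S100a13. S100a16 was closest to Rab33b (0.130), Anxa6 (0.131) and Hebp1 (0.140), S100b to Hibadh (0.0969), Fhl1 (0.0978) and Slc25a22 (0.102), and S100a10 to Pld2 (0.0948), Slc25a1 (0.105) and Nub1 (0.105). An unvarying gene would stand at 0.284 from S100a16, 0.172 from S100b and 0.195 from S100a10. Small values for these genes thus partly reflect profiles that vary little. S100a11, at its few counts, was closest to Gmeb1 (0.201), Whamm (0.209) and Ace (0.238). All these profiles come from the same libraries and share their depth and tissue makeup.

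**Figure D4:**
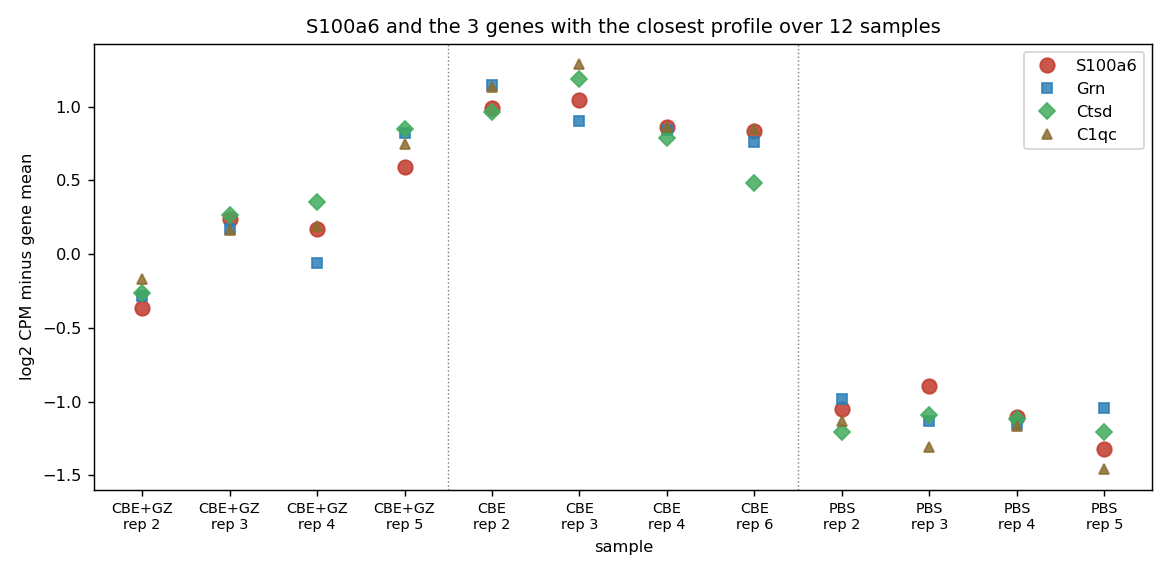
Log2 CPM minus the gene's mean over 12 samples (y axis) for S100a6, Grn, Ctsd and C1qc in each CBE+GZ-667161, CBE and PBS sample (x axis, dotted lines between groups). All 4 genes are lowest in PBS samples and have their highest mean in CBE, with CBE+GZ-667161 replicate 5 reaching into the CBE range for Grn and Ctsd but not for S100a6 and C1qc. The plotted profiles have root mean square differences from S100a6 of 0.160 for Grn, 0.168 for Ctsd and 0.170 for C1qc.

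Of the known binding partners, 3 of 9 tested annexins and annexin partners were higher in CBE than in PBS and 0 were lower, where 6.95% of all genes were higher and 4.04% lower. Their median was 0.70, against -0.01 over all genes. Anxa2, the partner of S100a10, had 21.9 ± 4.98 CPM in CBE+GZ-667161, 38.8 ± 7.64 CPM in CBE and 21.9 ± 1.34 CPM in PBS (SD, n = 4 each). It was higher in CBE than in PBS by 0.81 ± 0.18 (adjusted p = 0.0074, edgeR) and lower in CBE+GZ-667161 than in CBE by -0.84 ± 0.18 (adjusted p = 0.035, edgeR), while S100a10 itself passed in neither. Anxa4 rose by 1.80 ± 0.39 (adjusted p = 0.0055, edgeR) and Anxa5, a phosphatidylserine binder, by 0.70 ± 0.18 (adjusted p = 0.017, edgeR) in CBE against PBS. Anxa5 no longer passed without the day 34 samples (0.35, adjusted p = 0.22, edgeR), nor did Anxa2 (0.56, adjusted p = 0.079, edgeR). Anxa5 was also lost without PBS replicate 5 (adjusted p = 0.056, edgeR) or CBE replicate 2 (adjusted p = 0.064, edgeR), and Anxa4 without the day 40 samples (1.56, adjusted p = 0.092, edgeR). Anxa3 was the annexin that passed in CBE+GZ-667161 against PBS, at 1.01 (adjusted p = 0.013, edgeR).

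Of 7 tested receptors and extracellular partners, 1 was higher in CBE than in PBS and 0 lower, with a median of -0.35, again beside 6.95% and 4.04% of all genes. That gene was Tlr2, a Toll-like receptor of myeloid cells, with 29.2 ± 8.74 CPM in CBE+GZ-667161, 32.9 ± 8.26 CPM in CBE and 3.45 ± 1.80 CPM in PBS (SD, n = 4 each). It rose by 3.21 ± 0.33 in CBE (adjusted p = 5.1e-06, edgeR) and by 3.04 ± 0.33 in CBE+GZ-667161 (adjusted p = 1.6e-05, edgeR) against PBS. Of 27 tested intracellular targets, 2 were higher and 2 lower in CBE than in PBS, with a median of -0.24. Those counts are near the shares over all genes, 6.95% higher and 4.04% lower. The higher ones were the intermediate filament genes Vim, by 2.86 ± 0.22 (adjusted p = 2.0e-07, edgeR), and Gfap, by 3.28 ± 0.27 (adjusted p = 3.9e-07, edgeR), both of which also stand in the list of reactive astrocyte markers. The lower ones were Mapt, encoding the microtubule protein tau, by -0.63 ± 0.15 (adjusted p = 0.012, edgeR), and the chromatin remodeller Smarca4, by -0.46 ± 0.12 (adjusted p = 0.016, edgeR). Mapt missed the threshold without the day 40 samples, PBS replicate 2 or CBE replicate 6 (adjusted p of 0.0501 to 0.22, edgeR). Smarca4 missed it in 6 of 23 alternatives, among them those without PBS replicate 2, PBS replicate 4 or CBE replicate 6 (adjusted p of 0.055 to 0.069, edgeR). Vim and Gfap were also lower in CBE+GZ-667161 than in CBE, by -1.31 ± 0.21 (adjusted p = 0.010, edgeR) and -1.12 ± 0.25 (adjusted p = 0.040, edgeR).

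From S100a1 to S100a10 the annotation lists 121 genes over 3053610 bases, of which 14 stood in the count table and 9 were tested, 7 of them the S100 genes described here. The other two were S100a9, encoding a calprotectin subunit, and Lor, encoding the skin protein loricrin. In CBE against PBS, S100a9 gave -0.89 ± 0.81 (adjusted p = 0.54, edgeR) and Lor gave 0.28 ± 0.30 (adjusted p = 0.61, edgeR), so neither passed.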

How the data were processed

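RNA from 12 whole-brain homogenates was made into bulk MARS-seq libraries, per the labels' protocols. The submitters' processing notes name cutadapt, HISAT 0.1.6, HTSeq, DESeq2 and mm10, with no order. The annotation, the use of molecular identifiers and the strand setting are not given in the sources used here. Raw read counts per gene, which were used as deposited, came from the authors, with a table of their own comparisons with log2 fold changes and adjusted p-values; the authors' fold changes are stored with the first-named group on top, PBS over CBE, for example. A deposited table of normalized values was not used. 23 entries under 21 names turned into dates, 0.266 to 0.347% of counts, were left out, which left 16482 genes.

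Genes were kept with edgeR's filterByExpr (minimum count 10, minimum total 15), scaled by TMM and fitted over the 3 groups with edgeR 4.0.16 in R 4.3.3. The CBE group was split by age in a fit of 4 groups for the age comparison. Log2 CPM profiles used a prior count of 2. The biological coefficient of variation was 0.193. Replicates of a group differed by chi-square values of 3.53 to 13.3 per degree of freedom, more than sampling noise. DESeq2 1.42.0 and limma 3.58.1 were alternatives, with other scaling, filter, covariate, age and left-out-sample settings. The fit was tested on simulated counts in which every gene had a coefficient of variation of 0.193. In CBE against PBS, 8.96% of 1.5-fold, 70.1% of 2-fold and 96.8% of 4-fold changes passed there. Those changes were set in 67, 67 and 63 of 12578 genes, far fewer than the 1387 called in the data. With fewer changed genes the adjusted threshold is harder to reach, so these shares may understate recovery in the data. Of the 120 calls, 6 were genes left unchanged. For 1.5-fold changes the share was 17.9% in CBE+GZ-667161 against PBS and 20.9% against CBE. A gene that did not pass may still differ by such an amount.

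The 8 genes and all lists were chosen with earlier results of these data known. Named were all 8 genes, other S100 family genes, up to 4 genes of each partner list by smallest p among those that passed in CBE against PBS, the 3 closest profiles, and tested genes of the chromosome 3 stretch; Anxa3 and Calm3 were named after their values were seen. Intervals cover the fitted spread between samples.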

Additional observations from a re-analysis of the deposited data

Results flagged for a closer look

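1 of the 24 gene and group combinations had a sample far from the other samples of its group, and chance flags about 1 in 20 such groups. S100a11 in PBS replicate 2 stood at 2.91 CPM, against 1.68 to 1.70 CPM in the other PBS samples, a gap of 0.973 of the group's whole range on the log2 scale. The values rest on 4 to 11 counts a sample.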

How the results depend on the processing

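968 single-gene values were computed under the alternatives. 878 kept their direction and side of the threshold, 58 fell short of it, 10 passed it and 22 changed sign, all of the last for genes that did not pass. In CBE against PBS, 4 of the 8 genes passed. This became 2 (S100a4, S100a6) without the day 34 samples and 2 to 4 with a replicate left out. It stayed 4 without the day 40 samples. Of all genes, 1387 passed in the main fit, 1798 without the day 34 samples and 751 without the day 40 samples. With a replicate left out, 962 to 1515 of all genes passed. The count for CBE+GZ-667161 against PBS was 1 in all 21 alternatives, where 326 to 570 of all genes passed, against 435 in the main fit. For CBE+GZ-667161 against CBE, where 1 gene passed, the count was 2 with RLE scaling, limma-voom or Ttr as covariate, 3 with DESeq2, and 0 with the replicate block, an Xist covariate, either CBE age alone or only the samples of both groups. Leaving out a replicate gave 0 to 3, with 5 to 269 of all genes passing. S100a6 ran from -0.94 to -0.59 there, with adjusted p (edgeR, DESeq2 or limma) of 0.0013 to 0.17. Of all genes, 1.28% were called there in the main fit. The number called was 489 with DESeq2, 692 with the day 40 CBE samples alone and 2 with the day 34 CBE samples alone. It was 174 with RLE scaling, 210 with limma-voom and 224 with Ttr as covariate. It fell to 82 with the replicate block, 32 with the Xist covariate and 31 with only the samples of both groups. For day 40 against day 34 the count was 0, 1 with DESeq2 and 1 without CBE+GZ-667161 replicate 5. Of all genes, 82, 240 and 70 passed in these fits, in that order. Fits with a CBE replicate left out leave an age with 1 sample, assumed to vary like the other groups. The cause of these shifts was not tested.

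Sign changes in CBE against PBS without day 34 were -0.36 for S100a16 and -0.093 for S100b. With a replicate left out these 2 genes ran from -0.15 to 0.22 and from -0.049 to 0.19. For CBE+GZ-667161 against PBS, S100a13 gave -0.0058 with limma-voom and -0.072 to 0.13 with a replicate left out, S100b -0.027 to 0.15, S100a10 -0.0016 to 0.14 and S100a1 -0.078 to 0.23. In CBE+GZ-667161 against CBE, S100b gave 0.071 with the Xist covariate, 0.13 without day 34 and -0.10 to 0.090 with a replicate left out; S100a10 gave 0.020 without day 34; S100a16 gave -0.23 without day 40 and -0.0097 to 0.36 with a replicate left out. Between the ages, S100a11 ran from -0.31 to 1.13 and S100a4 from -0.42 to 0.069.

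Replicate numbers are shared between groups, and the labels do not say whether they pair the samples. Over 10 same-numbered pairs the correlation of deviations was -0.0783 to 0.240, over 0.1 in 1 pair, PBS and CBE+GZ-667161 replicate 3. Pairs with different numbers were not compared, so these values cannot settle whether the numbers mark a pairing. With the replicate block, 3 genes passed in CBE against PBS, 1 in CBE+GZ-667161 against PBS and 0 in CBE+GZ-667161 against CBE, where S100a6 gave -0.84 (adjusted p = 0.055, edgeR). No paired analysis was possible for the ages because they share no number.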

Other observations

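Outside the 8 genes, 4 genes of a list of 10 with S100 names had counts. S100a9 and S100pbp were tested between the treatment groups and passed in none of these comparisons; S100a8 and S100a3 had too few counts to be tested there. S100a9 and S100a8 encode calprotectin, the main cytosolic protein of neutrophils. S100a9 had 29, 20, 53 and 8 counts in CBE+GZ-667161 samples, 4, 0, 15 and 5 in CBE samples, and 2, 60, 5 and 14 in PBS samples. S100a8 had 6, 7, 30 and 0 counts in CBE+GZ-667161 samples, 1, 3, 0 and 5 in CBE samples, and 3, 18, 0 and 3 in PBS samples. CBE+GZ-667161 replicate 4 held the most S100a8 counts and PBS replicate 3 the most S100a9 counts, and the groups overlapped. S100a9 differed between CBE+GZ-667161 and CBE by 1.42 ± 0.79 (adjusted p = 0.38, edgeR). The neutrophil markers summed to 14.3 to 43.1 CPM in CBE+GZ-667161, 15.6 to 22.2 CPM in CBE and 4.50 to 32.8 CPM in PBS samples. S100a3, known from hair cuticle, had 27, 22 and 23 counts in all in CBE+GZ-667161, CBE and PBS. S100pbp, which encodes an S100P-binding protein and no S100 protein, gave -0.29 ± 0.21 in CBE against PBS (adjusted p = 0.42, edgeR).

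Of 26 other EF-hand calcium sensors and buffers, 2 were higher and 3 lower in CBE than in PBS, with a median of -0.18, where 6.95% of all genes were higher and 4.04% lower, so that the higher count is near the share over all genes. Higher were Aif1, the microglial protein Iba1, by 2.04 ± 0.23 (adjusted p = 1.1e-05, edgeR), and Sparc, a secreted matrix protein, by 0.89 ± 0.12 (adjusted p = 8.7e-05, edgeR). Lower were the interneuron buffer Pvalb, by -0.65 ± 0.18 (adjusted p = 0.025, edgeR), the neuronal sensor Vsnl1, by -0.42 ± 0.12 (adjusted p = 0.029, edgeR), and the calmodulin gene Calm3, by -0.30 ± 0.09 (adjusted p = 0.047, edgeR). Aif1 also passed in CBE+GZ-667161 against PBS, at 1.78 ± 0.22 (adjusted p = 6.9e-05, edgeR), and no other of these genes did. Pvalb missed the threshold in 5 and Vsnl1 in 10 of 23 alternatives, both without PBS replicate 2, PBS replicate 4 or CBE replicate 6 among others, with adjusted p (edgeR) of up to 0.092 and 0.12. Of 13 neuron markers, 8 were lower in CBE than in PBS, and the part of neuron content in Pvalb, Vsnl1 and Calm3 was not tested.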
